A study of Homo sapiens with 9 samples.

Results

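Lysosome and autophagy genes were followed in A549, an established human lung adenocarcinoma cell line, as a set of 48 genes among the 62257 rows of the deposited gene table. The genes were chosen by name, as a list of lysosomal and autophagy symbols matched to the table by Ensembl ID. Earlier results of these data were known when the list was drawn up, so its counts beside all genes are descriptive. All 48 symbols were matched. The set holds 26 soluble hydrolases and their activators, 5 lysosomal membrane proteins, 4 parts of the proton pump, 2 transcription factors and 11 proteins of the autophagosome.

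RNA was sequenced from 9 samples of A549 in 3 groups of 3 libraries. The STS_apoEV cells had received apoptotic extracellular vesicles, the membrane-bound fragments shed by dying cells, made after apoptosis was induced with staurosporine, a broad kinase inhibitor. The DDP_apoEV cells had received such vesicles made after apoptosis was induced with cisplatin, a platinum drug that crosslinks DNA. The control cells had received saline (PBS), and each exposure lasted 96 h. Neither the vesicle dose nor the cells that made the vesicles are named in the labels. The labels also leave unsaid whether libraries sharing a label were cultured apart, and p-values below therefore measure only how these samples spread, which may be technical. All groups are the same single cell line without a genetic change given in the labels. The libraries are bulk, and fewer cells of a kind and less RNA per cell cannot be told apart in them.

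The lysosome is the acidic compartment in which cells break down proteins, lipids and sugars. A proton pump in its membrane acidifies it, soluble hydrolases do the cutting, and membrane proteins line it and carry the products out. In autophagy a double membrane closes around cytoplasm to form an autophagosome, which fuses with the lysosome, and material taken up from outside the cell, vesicles included, reaches the same compartment through endocytosis. TFEB and TFE3 are transcription factors that bind E-box motifs in the promoters of many of these genes.

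Total counts per library were 13799950 to 14816996 in the STS_apoEV group, 15949255 to 16526399 in the DDP_apoEV group and 14356195 to 15492993 in the control group, and each library resembled the other libraries of its own group more than any library of another group. Epithelial markers, listed to check the cell type, summed to 6757 to 7976 CPM (counts scaled to library size with trimmed-mean factors) with STS_apoEV, 5724 to 6191 CPM with DDP_apoEV and 10060 to 11110 CPM in control. KRT8 and KRT18 made up nearly all of that sum, EPCAM stayed at or under 3.69 CPM and CLDN7 at or under 0.0702 CPM in every library. With STS_apoEV against control the log2 fold change was -0.43 for KRT8 (adjusted p = 3.12e-05) and -0.85 for KRT18 (adjusted p = 1.2e-11). CDH1 and EPCAM also fell with STS_apoEV, while KRT19 rose by 0.36 (adjusted p = 0.004). KRT8, KRT18 and CDH1 fell with DDP_apoEV as well. The 10 leukocyte markers summed to 20.8 to 25.7 CPM with STS_apoEV, 13.9 to 15.6 CPM with DDP_apoEV and 11.3 to 16.7 CPM in control, with CD163 at 0 in all 9 libraries. AIF1 was also at 0, but it lies in the stretch of chromosome 6, described with NEU1, where most coding genes had 0 counts. CD14 and ITGAM supplied nearly all of the leukocyte sum, and both were higher with STS_apoEV than in control, CD14 by 0.82 ± 0.152 on the log2 scale (adjusted p = 6.07e-05) and ITGAM by 1.03 ± 0.238 (adjusted p = 0.000898). PTPRC, which marks leukocytes in general, had 3 counts in STS_apoEV replicate 1 and 0 in the other libraries. The 4 endothelial markers summed to 2.53 to 4.32 CPM with STS_apoEV, 1.16 to 1.40 CPM with DDP_apoEV and 1.32 to 1.76 CPM in control, and the 6 fibroblast markers to 3.17 to 3.85 CPM with STS_apoEV, 1.89 to 2.54 CPM with DDP_apoEV and 2.64 to 3.51 CPM in control. PECAM1, an endothelial marker, was higher with STS_apoEV, at 2.17, 3.37 and 1.97 CPM, against 0.0651, 0.137 and 0.278 CPM in control (log2 fold change 3.92 ± 0.556, adjusted p = 1.08e-06). CDH5, also endothelial, went the other way without a call (-0.46 ± 0.467, adjusted p = 0.487), and VWF and KDR had too few counts to test. The part of these markers in the results below was not tested.

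Of the 47 lysosome and autophagy genes with enough counts to test, 25 rose with STS_apoEV against control, and 15.9% of all 16947 genes tested rose in that comparison. None of the 47 fell in edgeR's test, with 0 lower at an unadjusted p under 0.05 and 0 lower by DESeq2 and by limma-voom, where 16.8% of all genes fell. With DDP_apoEV against control 5 of the 47 rose, beside 7.16% of all genes, and 8 fell, beside 8.32% of all genes. Between the vesicles, 30 members were higher and 3 lower with STS_apoEV than with DDP_apoEV, beside 20.2% and 19.5% of all genes. A test of any difference among the 3 groups called 36 of the 47 members and 45.1% of all genes. The median log2 fold change of the members was 0.36 for STS_apoEV against control, -0.11 for DDP_apoEV against control and 0.42 for STS_apoEV against DDP_apoEV, while over all genes tested it was 0.01 for STS_apoEV against control, -0.0033 for DDP_apoEV against control and 0.03 for STS_apoEV against DDP_apoEV.

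Both comparisons with control use the same 3 control libraries, so their calls are set side by side without a test of their overlap. CTSC, CTSB and IDS rose with both vesicles. ASAH1, NAGLU, CTSA, SGSH and CTSD rose with STS_apoEV and fell with DDP_apoEV. Another 17 members rose with STS_apoEV and were not called with DDP_apoEV. The shares of all genes tested with these joint patterns were not counted, so the groupings only describe the members. NPC1 and ATG7 rose and TPP1, MCOLN1 and ATP6V1A fell with DDP_apoEV without a call for STS_apoEV, and 17 members were called in neither.

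**Figure D1:**
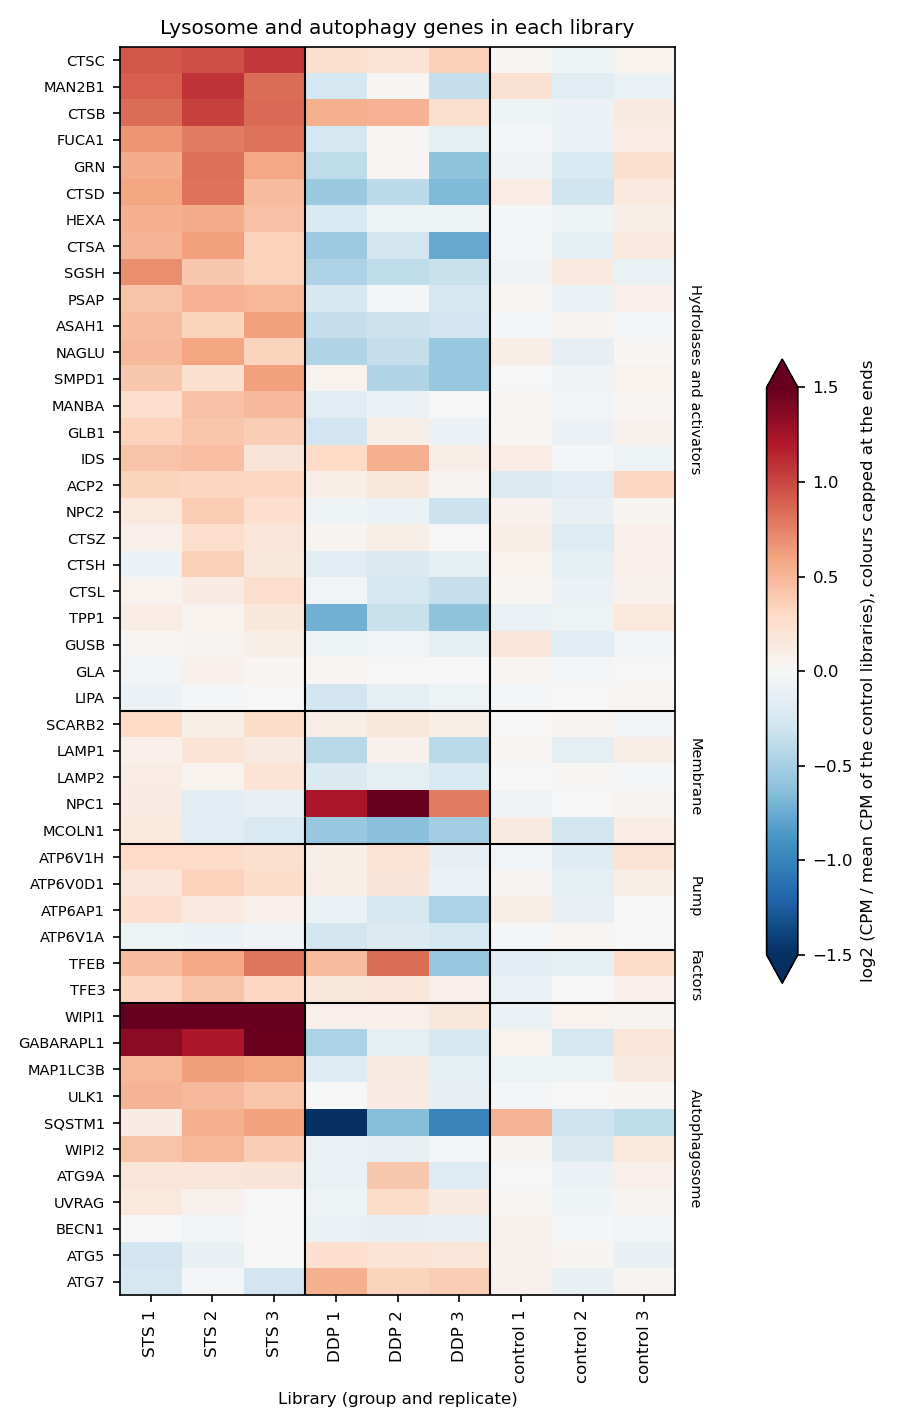
Level of each tested member in each of the 9 libraries, as log2 of its CPM over the mean CPM of the control libraries, with genes grouped by class and sorted by their change with STS_apoEV. The STS_apoEV columns are red for most hydrolases and for WIPI1 and GABARAPL1, the DDP_apoEV columns are blue for a group of hydrolases, and NPC1 is deep red in the DDP_apoEV columns.

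The promoters shown here are those of the 5 tested members that hold the E-box, together with those of the autophagosome genes that rose most, since TFEB and TFE3 belong to the set. RefSeq promoter windows (GRCh38.p14, 250 bases before to 50 bases after a gene's start) were at hand for 37 of the 48 members. The 6-letter E-box CACGTG reads the same on both strands, and it stood in a window of 6 of the 37 members (16.2%) and of 1672 of 15301 protein-coding genes (10.9%). The 8-letter form TCACGTGA, which contains the 6-letter one, stood in 4 of the 37 members (10.8%) and in 1.70% of protein-coding genes. Among members that rose with STS_apoEV, 3 of 17 held the 6-letter motif, and among tested members that did not, 2 of 19 did; the remaining one is NEU1. Capitals mark the 6-letter motif, and each sequence is the strand of the gene, 5′ to 3′, ending at the base before its RefSeq start.
LAMP1 (chr13:113297039-113297238, plus strand): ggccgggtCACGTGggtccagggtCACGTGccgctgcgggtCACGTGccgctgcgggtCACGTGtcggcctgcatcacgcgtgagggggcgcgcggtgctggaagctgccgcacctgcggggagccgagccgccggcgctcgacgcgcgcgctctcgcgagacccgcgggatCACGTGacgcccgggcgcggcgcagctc
MCOLN1 (chr19:7522564-7522623, plus strand): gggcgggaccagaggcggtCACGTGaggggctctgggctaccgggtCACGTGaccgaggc
CTSA (chr20:45891275-45891334, plus strand): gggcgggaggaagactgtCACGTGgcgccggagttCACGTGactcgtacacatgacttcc
CTSD (chr11:1763928-1763987, minus strand): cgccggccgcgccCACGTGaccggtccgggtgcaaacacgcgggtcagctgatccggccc
ATP6V0D1 (chr16:67481158-67481227, minus strand): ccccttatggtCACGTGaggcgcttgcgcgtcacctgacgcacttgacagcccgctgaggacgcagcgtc
WIPI1 (chr17:68457497-68457556, minus strand): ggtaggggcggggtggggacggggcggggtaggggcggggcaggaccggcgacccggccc
GABARAPL1 (chr12:10212817-10212876, plus strand): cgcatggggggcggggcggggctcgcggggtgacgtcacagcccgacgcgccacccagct
LAMP1 held the motif 6 times, starting 192, 176, 159, 142, 28 and 1 bases before the gene's start, so that the sixth begins on the last base shown. MCOLN1 held it 2 times, 41 and 14 bases before the start, both inside the 8-letter form. CTSA held it at 42 and at 25 bases, CTSD at 47 bases and ATP6V0D1 at 59 bases before the start. WIPI1 and GABARAPL1 held none in their windows, and neither did any of the 10 autophagosome members with a window. A match describes the letters of the window and is not a measurement of binding.

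**Figure D2:**
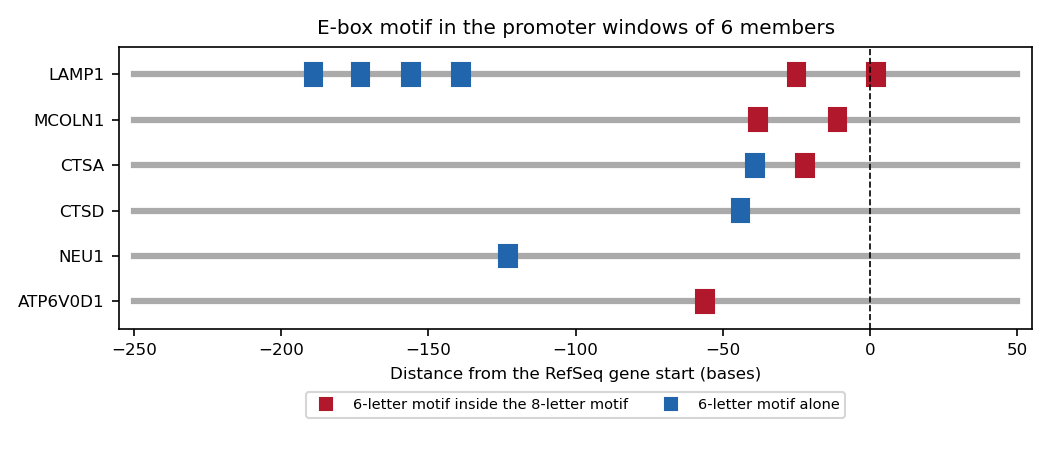
Positions of the 6-letter E-box in the RefSeq promoter windows of the 6 members that hold it, by distance in bases from the gene's start (dashed line), with red boxes where the motif lies inside the 8-letter form. LAMP1 holds 6 copies, MCOLN1 and CTSA 2 each, and CTSD, NEU1 and ATP6V0D1 1 each.

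Proteases, glycosidases, sulfatases and lipid-cutting enzymes make up the soluble hydrolases, and 16 of them or their activators were among the 25 members that rose with STS_apoEV. Of the 25 hydrolases and activators tested, 16 rose and none fell with STS_apoEV against control, 3 rose and 6 fell with DDP_apoEV against control, and 19 were higher and none lower with STS_apoEV than with DDP_apoEV. Over all genes tested, 15.9% rose and 16.8% fell with STS_apoEV, and 7.16% rose and 8.32% fell with DDP_apoEV. Between the vesicles 20.2% of all genes were higher and 19.5% lower. In the comparisons without a lower call, 0 of the 25 were lower at an unadjusted p under 0.05 in edgeR's test. Their median log2 fold change was 0.43 with STS_apoEV against control, -0.16 with DDP_apoEV against control and 0.63 with STS_apoEV against DDP_apoEV. Together the hydrolases and activators took 0.479% to 0.492% of all counts in the STS_apoEV libraries, 0.318% to 0.348% in the DDP_apoEV libraries and 0.360% to 0.397% in the control libraries, so the 3 ranges did not overlap. Without CTSL and PSAP, which supplied 50.8% to 54.1% of these counts in every library, the shares were 0.229% to 0.242% with STS_apoEV, 0.155% to 0.168% with DDP_apoEV and 0.167% to 0.183% in control, and there the DDP_apoEV and control ranges overlapped slightly.

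CTSC encodes cathepsin C, a dipeptidyl peptidase that activates other proteases in the lysosome. Its levels were 209, 214 and 227 CPM with STS_apoEV, 129, 127 and 139.6 CPM with DDP_apoEV and 110.5, 104 and 113 CPM in control. The 3 groups did not overlap, with STS_apoEV highest and control lowest. The log2 fold change was 0.99 ± 0.074 (adjusted p = 1.81e-12) with STS_apoEV against control, 0.27 ± 0.074 (adjusted p = 0.0106) with DDP_apoEV against control and 0.72 ± 0.073 (adjusted p = 1.29e-09) with STS_apoEV against DDP_apoEV. The DDP_apoEV call ended without DDP_apoEV replicate 3 (adjusted p = 0.0768) or without control replicate 2 (adjusted p = 0.071).

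CTSB, cathepsin B, is a cysteine protease of the lysosome. It measured 177, 201 and 178 CPM with STS_apoEV, 144, 141 and 116 CPM with DDP_apoEV and 94.3, 93.3 and 109 CPM in control. Every STS_apoEV library stood above every DDP_apoEV library, and every DDP_apoEV library above every control library. Against control its log2 fold change was 0.91 ± 0.086 (adjusted p = 5.32e-10) with STS_apoEV and 0.44 ± 0.086 (adjusted p = 0.000366) with DDP_apoEV, and between the vesicles it was 0.47 ± 0.084 (adjusted p = 3.54e-05).

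CTSD, cathepsin D, is the main aspartic protease of the lysosome. CTSD had 164, 191 and 151 CPM with STS_apoEV, 74.2, 83.1 and 68.5 CPM with DDP_apoEV and 118, 88.5 and 120.0 CPM in control. All STS_apoEV libraries were above and all DDP_apoEV libraries below the control libraries, among which replicate 2 was the lowest. Its log2 fold change against control was 0.63 ± 0.12 (adjusted p = 0.000604) with STS_apoEV and -0.53 ± 0.12 (adjusted p = 0.00637) with DDP_apoEV. Between the vesicles it was 1.17 ± 0.12 (adjusted p = 1.34e-06), a level 2.24-fold higher with STS_apoEV.

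ASAH1, acid ceramidase, splits ceramide into sphingosine and a fatty acid. The ASAH1 levels were 320.0, 294 and 357 CPM with STS_apoEV, 181, 186 and 190.3 CPM with DDP_apoEV and 227, 239 and 230.4 CPM in control. The groups stood apart, in the order STS_apoEV, control, DDP_apoEV from high to low. STS_apoEV against control gave a log2 fold change of 0.48 ± 0.074 (adjusted p = 4.47e-06), DDP_apoEV against control -0.32 ± 0.074 (adjusted p = 0.00205) and STS_apoEV against DDP_apoEV 0.80 ± 0.074 (adjusted p = 1.76e-10).

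NAGLU, an enzyme that removes a sugar from heparan sulfate as it is broken down, followed the same order. Its levels were 81.7, 87.9 and 73.8 CPM with STS_apoEV, 42.8, 45.6 and 39.5 CPM with DDP_apoEV and 62.5, 53.6 and 58.9 CPM in control. No library of one group lay within the range of another. The log2 fold changes were 0.48 ± 0.087 (adjusted p = 5.25e-05) with STS_apoEV against control, -0.45 ± 0.089 (adjusted p = 0.000342) with DDP_apoEV against control and 0.93 ± 0.088 (adjusted p = 2.75e-10) between the vesicles.

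Of the remaining hydrolases, CTSA, a carboxypeptidase that also protects glycosidases in the lysosome, rose by 0.49 with STS_apoEV and fell by 0.51 with DDP_apoEV on the log2 scale. SGSH, a sulfatase of heparan sulfate breakdown, had log2 fold changes of 0.49 with STS_apoEV and -0.39 with DDP_apoEV, and its DDP_apoEV call ended without DDP_apoEV replicate 1 or 2 (adjusted p = 0.108 and 0.0623) or without control replicate 2 (adjusted p = 0.154). TPP1, a tripeptidyl peptidase, gave 0.11 with STS_apoEV, which was not called, and fell with DDP_apoEV (-0.54 ± 0.10 (adjusted p = 0.000163)). MAN2B1, a mannosidase, rose with STS_apoEV (0.94 ± 0.13 (adjusted p = 1.17e-06)), and FUCA1, a fucosidase, did so too (0.76 ± 0.13 (adjusted p = 1.36e-05)). Neither was called with DDP_apoEV, where their log2 fold changes were -0.20 and -0.13.

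HEXA, the alpha subunit of beta-hexosaminidase, PSAP, the precursor of the saposins that present lipids to hydrolases, MANBA, a beta-mannosidase, and GLB1, a beta-galactosidase, rose with STS_apoEV by 0.51, 0.48, 0.40 and 0.37. GRN, the precursor of granulins, rose by 0.66, a call that ended without STS_apoEV replicate 2 or 3 (adjusted p = 0.104 and 0.0587) or control replicate 1 or 2 (adjusted p = 0.0949 and 0.075). With DDP_apoEV against control, GRN gave -0.29 and PSAP -0.17, neither called, though both passed the threshold as lower without DDP_apoEV replicate 2 (adjusted p = 0.011 for GRN and 0.0382 for PSAP). With all libraries kept, GRN also passed as lower without the filter on low counts (adjusted p = 0.0181), against 0.371 with it. NPC2, which hands cholesterol from the lumen to the membrane, rose by 0.27, a call that ended without STS_apoEV replicate 2 (adjusted p = 0.0643) or control replicate 2 (adjusted p = 0.102). IDS, a sulfatase of heparan and dermatan sulfate breakdown, rose by 0.36 with STS_apoEV and by 0.32 with DDP_apoEV. The STS_apoEV call of IDS ended without STS_apoEV replicate 1 (adjusted p = 0.0587) or control replicate 3 (adjusted p = 0.0595), and its DDP_apoEV call without DDP_apoEV replicate 1 or 2 (adjusted p = 0.0781 and 0.282) or control replicate 2 or 3 (adjusted p = 0.105 and 0.15). The DDP_apoEV call of IDS also ended with DESeq2 (adjusted p = 0.052) and limma-voom (adjusted p = 0.0511). It held under 11 of 20 alternative settings, and the DDP_apoEV and control libraries overlapped.

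SMPD1, ACP2, CTSZ, CTSH, CTSL, TPP1, GUSB, GLA and LIPA made up the 9 hydrolases without a call for STS_apoEV against control, with log2 fold changes between -0.035 for LIPA, the lysosomal acid lipase, and 0.43 for SMPD1, the acid sphingomyelinase. GLA, alpha-galactosidase A, had the smallest differences between groups of the tested members, at 214, 231 and 223 CPM with STS_apoEV, 224, 219.8 and 219 CPM with DDP_apoEV and 224, 218 and 218 CPM in control. Its 3 groups overlapped. CTSL, cathepsin L, gave -0.22 ± 0.077 (adjusted p = 0.0533) with DDP_apoEV against control, just outside the threshold, and was higher with STS_apoEV than with DDP_apoEV by 0.37 ± 0.077 (adjusted p = 0.000254). Its comparison of DDP_apoEV with control passed the threshold without DDP_apoEV replicate 1 (adjusted p = 0.0127) or without STS_apoEV replicate 2 or 3 (adjusted p = 0.0459 and 0.0448). ACP2, a lysosomal acid phosphatase, passed the threshold as higher with STS_apoEV than in control without control replicate 3 (adjusted p = 0.00978). CTSH, cathepsin H, was higher between the vesicles by 0.33 ± 0.11 (adjusted p = 0.012), a call that ended without DDP_apoEV replicate 2 (adjusted p = 0.0559) or STS_apoEV replicate 2 (adjusted p = 0.13).

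NEU1, a lysosomal sialidase on chromosome 6 (31857659 to 31862905, hg38), had 0 counts in all 9 libraries. A ceiling of 3 counts would be 0.182 to 0.217 CPM per library, but it holds only if reads of NEU1 could be counted. Of 154 protein-coding genes between 29.6 and 33.4 Mb of that chromosome 113 (73.4%) had 0 counts in all libraries, against 12.9% of 19877 protein-coding genes overall. The cause of these zeros was not tested, so they set no limit on the level of NEU1, and it entered no comparison.

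Per length of gene, PSAP and CTSL were the most abundant members, as mean FPKM (fragments scaled to gene length and to library size) in each group. PSAP averaged 348 ± 13.0 FPKM with STS_apoEV, 226 ± 20.9 with DDP_apoEV and 252 ± 13.0 in control (SD, n = 3 each). CTSL averaged 222 ± 17.9 FPKM with STS_apoEV, 175 ± 19.4 with DDP_apoEV and 202 ± 9.44 in control (SD, n = 3 each) in the same unit. NPC2 came next at 82.9 ± 6.49 FPKM with STS_apoEV, 62.8 ± 6.02 with DDP_apoEV and 69.7 ± 4.15 in control (SD, n = 3 each). Its place depends on the deposited gene lengths, such as 2584 bases for NPC2 and 15378 bases for ASAH1. By mean CPM in control, ASAH1 (232) stood above NPC2 (182). TFEB was the lowest of the tested members, at 0.526 ± 0.0665 FPKM with STS_apoEV, 0.447 ± 0.197 with DDP_apoEV and 0.346 ± 0.0616 in control (SD, n = 3 each).

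**Figure D3:**
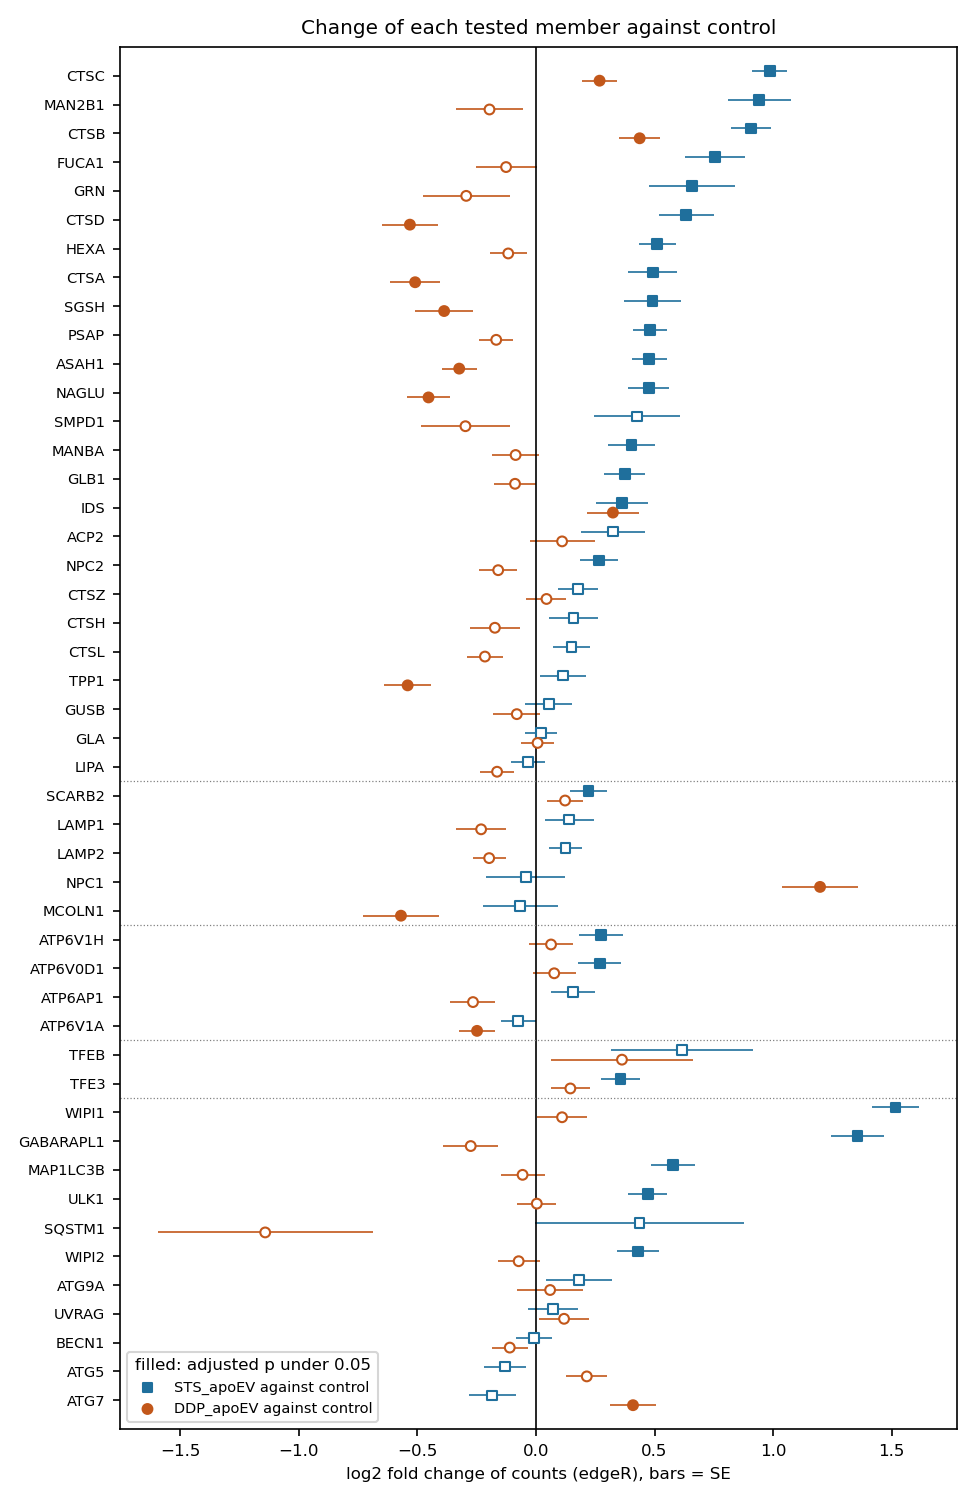
The log2 fold change of each tested member against control, with STS_apoEV as blue squares and DDP_apoEV as orange circles, bars of 1 SE and filled symbols where the adjusted p is under 0.05. All filled blue squares lie right of 0, and filled orange circles lie on both sides, from -0.57 for MCOLN1 to 1.20 for NPC1.

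Of the 5 membrane proteins, SCARB2 alone rose with STS_apoEV (20% of them, beside 15.9% of all genes tested). With DDP_apoEV, NPC1 rose and MCOLN1 fell (20% each, beside 7.16% and 8.32% of all genes), and the other 3 were not called. Between the vesicles LAMP1, LAMP2 and MCOLN1 were higher and NPC1 was lower with STS_apoEV (60% and 20%, beside 20.2% and 19.5% of all genes).

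NPC1 is the transporter that moves cholesterol out of the lysosome, and it lies on chromosome 18 (23506184 to 23586506, hg38). NPC1 measured 48.3, 39.9 and 41.1 CPM with STS_apoEV, 104, 126 and 76.5 CPM with DDP_apoEV and 42.9, 44.6 and 45.8 CPM in control. All DDP_apoEV libraries were above every other library, while the STS_apoEV and control libraries overlapped. Its log2 fold change was -0.043 ± 0.17 (adjusted p = 0.88) with STS_apoEV against control, 1.20 ± 0.16 (adjusted p = 0.000738) with DDP_apoEV against control, a level 2.29-fold higher, and -1.24 ± 0.16 (adjusted p = 0.000182) with STS_apoEV against DDP_apoEV. It was the only member called with DDP_apoEV against control under all 20 alternative settings.

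LAMP2, a heavily glycosylated protein of the lysosomal membrane, had 238, 229 and 254 CPM with STS_apoEV, 189.8, 199.5 and 188 CPM with DDP_apoEV and 222, 224 and 216 CPM in control. The DDP_apoEV libraries lay below the control libraries and the STS_apoEV libraries above them. Against control the log2 fold changes were 0.12 ± 0.070 (adjusted p = 0.182) with STS_apoEV and -0.20 ± 0.070 (adjusted p = 0.0518) with DDP_apoEV, neither called. Between the vesicles the difference was 0.32 ± 0.070 (adjusted p = 0.000377). DDP_apoEV against control passed the threshold with DESeq2 (adjusted p = 0.025), with limma-voom (adjusted p = 0.0455) and without STS_apoEV replicate 2 or 3 (adjusted p = 0.0384 and 0.0364).

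LAMP1, its relative and a standard marker of lysosomes, had 58.8, 64.0 and 61.0 CPM with STS_apoEV, 41.8, 58.1 and 42.1 CPM with DDP_apoEV and 56.9, 50.5 and 59.3 CPM in control. DDP_apoEV replicate 2 lay among the control libraries, while replicates 1 and 3 lay below them. LAMP1 gave 0.14 ± 0.10 (adjusted p = 0.329) with STS_apoEV against control, -0.23 ± 0.10 (adjusted p = 0.147) with DDP_apoEV against control and 0.37 ± 0.10 (adjusted p = 0.00572) between the vesicles. Without DDP_apoEV replicate 2 the comparison of DDP_apoEV with control gave -0.41 (adjusted p = 0.00371).

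MCOLN1, the calcium channel mucolipin 1 of the lysosomal membrane, was low, at 11.9, 9.51 and 9.08 CPM with STS_apoEV, 7.19, 6.89 and 7.43 CPM with DDP_apoEV and 11.7, 8.82 and 11.4 CPM in control. The DDP_apoEV libraries were the lowest, and those of STS_apoEV and control overlapped. The log2 fold change was -0.066 ± 0.16 (adjusted p = 0.797) with STS_apoEV against control, -0.57 ± 0.16 (adjusted p = 0.0134) with DDP_apoEV against control and 0.50 ± 0.16 (adjusted p = 0.0133) between the vesicles. The DDP_apoEV call ended without control replicate 1 (adjusted p = 0.0758) or 3 (adjusted p = 0.0668), and the call between the vesicles without STS_apoEV replicate 1 (adjusted p = 0.123).

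SCARB2, the receptor that brings glucocerebrosidase to the lysosome, rose with STS_apoEV by 0.22 ± 0.077 (adjusted p = 0.0247) and gave 0.12 ± 0.076 (adjusted p = 0.32) with DDP_apoEV. The STS_apoEV call ended without STS_apoEV replicate 1 or 3 (adjusted p = 0.137 and 0.0774) and without control replicate 1, 2 or 3 (adjusted p = 0.0906, 0.0549 and 0.125). It also ended without the filter on low counts (adjusted p = 0.106).

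**Figure D4:**
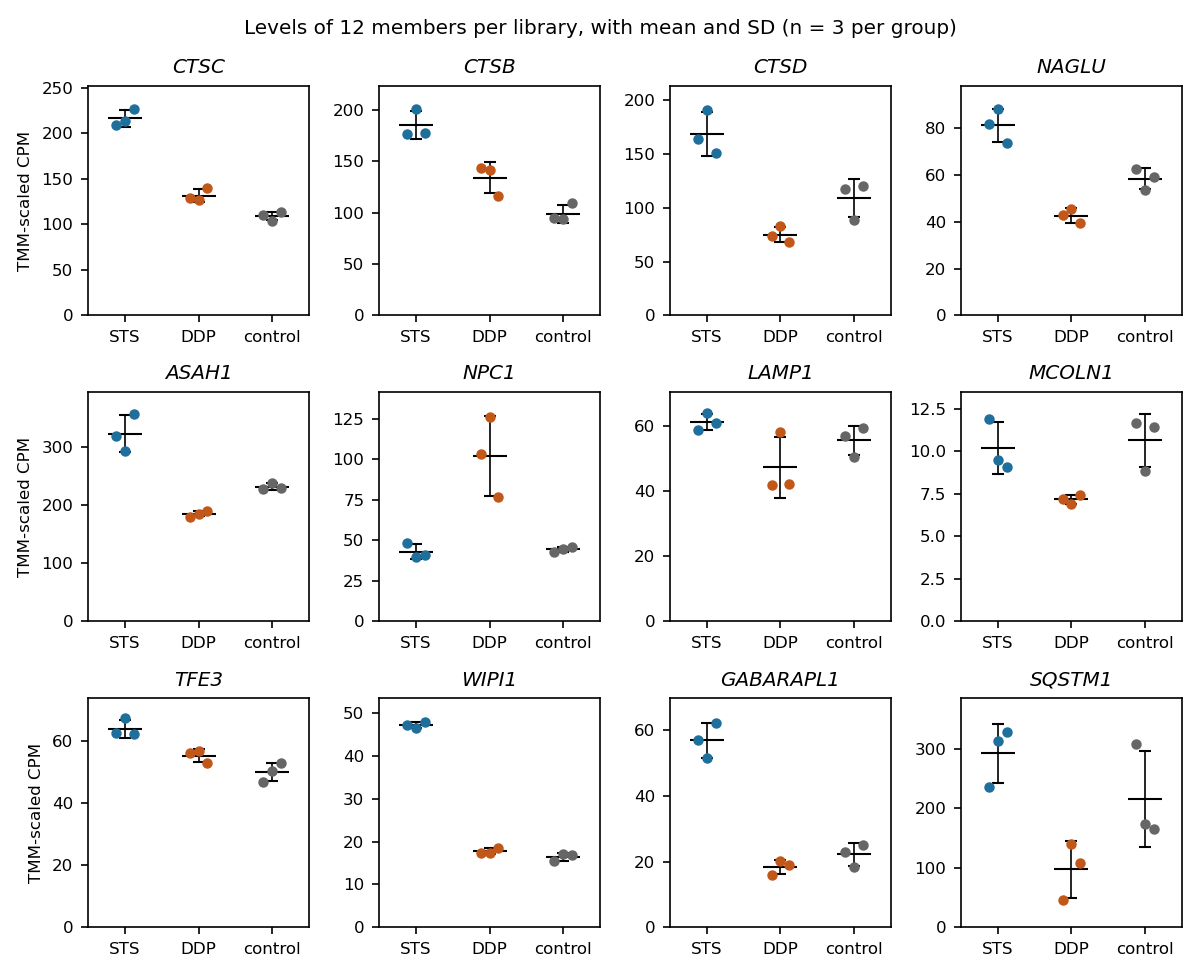
TMM-scaled CPM of 12 members in each library (points), with the mean (long bar) and SD of the 3 libraries of each group. WIPI1 and GABARAPL1 lie far above both other groups with STS_apoEV, NPC1 is high with DDP_apoEV alone, and CTSD, NAGLU and ASAH1 are above control with STS_apoEV and below it with DDP_apoEV.

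Of the 4 proton pump members, ATP6V1H and ATP6V0D1 rose with STS_apoEV, ATP6V1A fell with DDP_apoEV and ATP6AP1 was higher with STS_apoEV than with DDP_apoEV. The largest of these differences in size was 0.42 on the log2 scale. Over all genes tested, 15.9% rose with STS_apoEV, 8.32% fell with DDP_apoEV and 20.2% were higher with STS_apoEV than with DDP_apoEV.

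ATP6V1H and ATP6V1A are subunits of the cytosolic V1 sector, which splits ATP. ATP6V1H had 62.2, 62.1 and 60.2 CPM with STS_apoEV, 53.9, 58.6 and 46.8 CPM with DDP_apoEV and 49.4, 44.7 and 58.4 CPM in control. The STS_apoEV libraries were above the rest, and DDP_apoEV and control overlapped. It gave 0.27 ± 0.094 (adjusted p = 0.0236) with STS_apoEV against control, 0.064 ± 0.095 (adjusted p = 0.724) with DDP_apoEV against control and 0.21 ± 0.094 (adjusted p = 0.073) between the vesicles, where it passed the threshold without DDP_apoEV replicate 2 (adjusted p = 0.0383). The STS_apoEV call ended without STS_apoEV replicate 1 or 2 (adjusted p = 0.0817 and 0.0547) or control replicate 1 or 2 (adjusted p = 0.104 and 0.212).

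ATP6V1A, which carries the catalytic site, had 91.1, 91.0 and 92.6 CPM with STS_apoEV, 79.5, 83.9 and 79.99 CPM with DDP_apoEV and 94.3, 98.5 and 96.3 CPM in control. The DDP_apoEV libraries were the lowest, and the STS_apoEV libraries lay between them and control without overlap. Its log2 fold change was -0.074 ± 0.074 (adjusted p = 0.485) with STS_apoEV against control, -0.25 ± 0.074 (adjusted p = 0.019) with DDP_apoEV against control and 0.17 ± 0.075 (adjusted p = 0.0624) between the vesicles. The DDP_apoEV call ended without DDP_apoEV replicate 1 or 3 (adjusted p = 0.0835 and 0.0687) or control replicate 2 or 3 (adjusted p = 0.0737 and 0.0583), and without the filter on low counts (adjusted p = 0.0543).

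ATP6V0D1, a subunit of the membrane-bound V0 sector, had 54.9, 61.6 and 58.4 CPM with STS_apoEV, 51.9, 55.5 and 45.7 CPM with DDP_apoEV and 49.8, 43.6 and 51.7 CPM in control. STS_apoEV libraries were above the control libraries, and the lowest of them was below DDP_apoEV replicate 2. The log2 fold changes were 0.27 ± 0.090 (adjusted p = 0.0202) with STS_apoEV against control, 0.077 ± 0.090 (adjusted p = 0.643) with DDP_apoEV against control and 0.19 ± 0.090 (adjusted p = 0.0885) between the vesicles. The STS_apoEV call ended without STS_apoEV replicate 2 (adjusted p = 0.082) or control replicate 2 (adjusted p = 0.177), and without the filter on low counts (adjusted p = 0.0512).

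ATP6AP1, an accessory protein needed to assemble the pump, had 53.6, 49.9 and 47.4 CPM with STS_apoEV, 42.0, 38.1 and 32.4 CPM with DDP_apoEV and 48.1, 41.7 and 45.4 CPM in control. DDP_apoEV replicate 1 overlapped the control libraries, and every STS_apoEV library was above every DDP_apoEV library. ATP6AP1 gave 0.16 ± 0.094 (adjusted p = 0.213) with STS_apoEV against control, -0.27 ± 0.095 (adjusted p = 0.0533) with DDP_apoEV against control and 0.42 ± 0.095 (adjusted p = 0.00052) between the vesicles. The comparison of DDP_apoEV with control passed the threshold without DDP_apoEV replicate 1 (adjusted p = 0.0251), STS_apoEV replicate 2 (adjusted p = 0.0458) or control replicate 2 (adjusted p = 0.0408).

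Of the 2 transcription factors, TFE3 rose with STS_apoEV. Its levels were 62.5, 67.3 and 62.1 CPM with STS_apoEV, 56.3, 56.7 and 52.8 CPM with DDP_apoEV and 46.9, 50.2 and 52.9 CPM in control. The STS_apoEV libraries stood above all others, and those of DDP_apoEV and control overlapped. TFE3 gave 0.36 ± 0.083 (adjusted p = 0.000913) with STS_apoEV against control, 0.14 ± 0.083 (adjusted p = 0.264) with DDP_apoEV against control and 0.21 ± 0.082 (adjusted p = 0.0381) between the vesicles. The last call held under 6 of 20 alternative settings only, and leaving out any 1 library other than STS_apoEV replicate 3 ended it, with adjusted p between 0.0607 and 0.154.

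TFEB was low in every library, at 3.23, 3.51 and 4.08 CPM with STS_apoEV, 3.25, 4.21 and 1.59 CPM with DDP_apoEV and 2.08, 2.12 and 2.85 CPM in control. DDP_apoEV replicate 3 was the lowest library of all, and replicate 2 the highest. No comparison called TFEB, with 0.62 ± 0.30 (adjusted p = 0.115) for STS_apoEV against control, 0.36 ± 0.30 (adjusted p = 0.477) for DDP_apoEV against control and 0.25 ± 0.29 (adjusted p = 0.521) between the vesicles. Its SE was over 3 times that of TFE3 in each comparison.

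The 2 largest rises of the whole set with STS_apoEV were in autophagosome genes. Of 11 members, 5 rose and none fell with STS_apoEV against control, beside 15.9% and 16.8% of all genes tested. With DDP_apoEV 1 rose (9.09%), beside 7.16% of all genes. Between the vesicles 6 were higher and 2 lower with STS_apoEV, beside 20.2% and 19.5% of all genes.

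WIPI1, which binds a lipid of the growing autophagosome membrane, lies on chromosome 17 (68420948 to 68457513, hg38). WIPI1 measured 47.1, 46.5 and 47.9 CPM with STS_apoEV, 17.4, 17.4 and 18.6 CPM with DDP_apoEV and 15.4, 17.1 and 16.9 CPM in control. The STS_apoEV libraries lay within a narrow band far above the other 2 groups. STS_apoEV against control gave 1.52 ± 0.099 (adjusted p = 7.81e-14), a level 2.86-fold higher, DDP_apoEV against control gave 0.11 ± 0.10 (adjusted p = 0.544), and the vesicles differed by 1.41 ± 0.098 (adjusted p = 2.66e-13).

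GABARAPL1, an ATG8-family protein that is attached to autophagosome membranes, lies on chromosome 12 (10212458 to 10223128, hg38). It had 56.8, 51.4 and 62.1 CPM with STS_apoEV, 16.01, 20.1 and 18.8 CPM with DDP_apoEV and 22.9, 18.5 and 25.1 CPM in control. All STS_apoEV libraries stood above all others, and DDP_apoEV and control overlapped. The log2 fold change was 1.36 ± 0.11 (adjusted p = 1.94e-11) with STS_apoEV against control, -0.28 ± 0.12 (adjusted p = 0.111) with DDP_apoEV against control and 1.63 ± 0.11 (adjusted p = 3.04e-13) between the vesicles. Its level was 3.10-fold higher with STS_apoEV than with DDP_apoEV. Without control replicate 2 the comparison of DDP_apoEV with control gave -0.39 (adjusted p = 0.0251).

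MAP1LC3B, LC3B, is the ATG8-family protein most used to mark autophagosomes. MAP1LC3B had 67.3, 73.7 and 71.9 CPM with STS_apoEV, 41.5, 52.4 and 43.3 CPM with DDP_apoEV and 45.1, 45.2 and 52.4 CPM in control. The STS_apoEV libraries were the highest, and the others overlapped. Its log2 fold changes were 0.58 ± 0.091 (adjusted p = 6.38e-06) with STS_apoEV against control, -0.057 ± 0.093 (adjusted p = 0.753) with DDP_apoEV against control and 0.63 ± 0.091 (adjusted p = 9.48e-07) between the vesicles.

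ULK1, the kinase that starts autophagy, had 76.4, 74.7 and 71.5 CPM with STS_apoEV, 53.3, 58.5 and 49.1 CPM with DDP_apoEV and 52.2, 53.7 and 54.5 CPM in control. Again the STS_apoEV libraries were above the rest, among which the groups overlapped. ULK1 gave 0.47 ± 0.082 (adjusted p = 2.83e-05) with STS_apoEV against control, 0.0034 ± 0.083 (adjusted p = 0.984) with DDP_apoEV against control and 0.47 ± 0.082 (adjusted p = 2.17e-05) between the vesicles. WIPI2, a relative of WIPI1, rose by 0.43 ± 0.088 (adjusted p = 0.000234) with STS_apoEV against control.

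SQSTM1, p62, ties ubiquitin-marked cargo to the autophagosome and is itself degraded with it. SQSTM1 had the largest SE of all tested members and measured 236, 313 and 328 CPM with STS_apoEV, 45.7, 139 and 108 CPM with DDP_apoEV and 308, 173 and 166 CPM in control. DDP_apoEV replicate 1 was the lowest and control replicate 1 stood well above the other 2 control libraries, inside the STS_apoEV range. Its log2 fold change was 0.44 ± 0.44 (adjusted p = 0.519) with STS_apoEV against control, -1.14 ± 0.45 (adjusted p = 0.167) with DDP_apoEV against control and 1.58 ± 0.46 (adjusted p = 0.0344) between the vesicles. The call between the vesicles ended without DDP_apoEV replicate 3 (adjusted p = 0.0813), without any 1 STS_apoEV library (0.0591, 0.0857 and 0.0879 for replicates 1, 2 and 3) and without control replicate 2 (0.0538) or 3 (0.0517), all adjusted p. It also ended in a fit of the 2 vesicle groups alone (adjusted p = 0.0621) and without the filter on low counts (adjusted p = 0.0828).

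Among the genes of ATG8 conjugation, ATG7, the enzyme that activates ATG8 proteins and ATG12, rose with DDP_apoEV by 0.41 ± 0.096 (adjusted p = 0.00263), gave -0.18 ± 0.099 (adjusted p = 0.159) with STS_apoEV, and was lower with STS_apoEV than with DDP_apoEV by 0.59 on the log2 scale. ATG5, the partner of ATG12, was called only between the vesicles, at -0.34 ± 0.087 (adjusted p = 0.00195). BECN1, UVRAG and ATG9A, which act in the early steps of autophagosome formation, were called in no comparison, with log2 fold changes against control between -0.11 and 0.18.

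Several members share genome positions with other genes on the opposite strand, and no source used here gives the strand setting of the counting, so reads from the shared bases cannot be told apart. SLC26A11 had 86.8% of the counts of SGSH, NR1H3 102% of those of ACP2 and VGLL4 55.8% of those of ATG7. FBXO31 had 35.3% of those of MAP1LC3B and ARSG 30.0% of those of WIPI1. RMC1 had 29.1% of those of NPC1 and PSME3 231% of those of BECN1. These are totals of each whole neighbouring gene over the 9 libraries, not reads on shared bases. In the same order the gene spans shared 1225, 607, 1597, 8190, 1784, 25639 and 8966 bases. IDS, HEXA and CTSD also overlap a protein-coding gene on their own strand, by 43993, 35058 and 11203 bases. Those neighbours had 6.91%, 0.26% and 1.47% of their counts. PNPLA6, on the same strand as MCOLN1, overlaps it by 6 bases. MAP1LC3B and GABARAPL1 also have near-identical copies elsewhere in the genome, and no source used here says how reads shared with them were counted, so their values are less certain.

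Other genes of the same compartments, listed by role, were counted in the same fit. Their choice, too, was made with earlier results of these data known. For all of these lists, the shares over all genes tested were 15.9% higher and 16.8% lower with STS_apoEV against control. They were 7.16% and 8.32% with DDP_apoEV against control, and 20.2% and 19.5% between the vesicles. Of 29 other hydrolases and activators tested, 17 rose and 2 fell with STS_apoEV against control, 2 rose and 6 fell with DDP_apoEV against control, and 21 were higher and 1 lower with STS_apoEV than with DDP_apoEV. CTSS, cathepsin S, measured 161, 164 and 187 CPM with STS_apoEV, 53.5, 52.1 and 56.0 CPM with DDP_apoEV and 71.4, 76.0 and 71.9 CPM in control. Its groups did not overlap, and its log2 fold changes were 1.22 ± 0.079 (adjusted p = 5.27e-14) with STS_apoEV against control and -0.44 ± 0.081 (adjusted p = 0.000144) with DDP_apoEV against control. IDUA, which removes iduronic acid from glycosaminoglycans, gave 0.86 ± 0.099 (adjusted p = 2.39e-08) with STS_apoEV and -0.42 ± 0.10 (adjusted p = 0.00393) with DDP_apoEV. SIAE, a sialic acid esterase, gave 0.91 ± 0.11 (adjusted p = 4.25e-08) with STS_apoEV and -0.032 ± 0.11 (adjusted p = 0.892) with DDP_apoEV. The members of this list that went the other way, chosen after their values were seen, were PPT1 and CTSV, which fell with STS_apoEV, and GM2A and PRCP, which rose with DDP_apoEV.

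Of 23 other genes of the lysosomal membrane and of sorting to it, 11 rose and 2 fell with STS_apoEV against control, none rose and 8 fell with DDP_apoEV against control, and 16 were higher and none lower between the vesicles. In edgeR's test, 0 of these 23 were higher with DDP_apoEV and 1 was lower between the vesicles at an unadjusted p under 0.05. TPCN1, a two-pore channel, gave 0.61 ± 0.082 (adjusted p = 4.93e-07) with STS_apoEV and -0.28 ± 0.084 (adjusted p = 0.0188) with DDP_apoEV. SLC17A5, which exports sialic acid, gave 0.37 ± 0.098 (adjusted p = 0.0039) with STS_apoEV and -0.64 ± 0.10 (adjusted p = 2.21e-05) with DDP_apoEV. GNPTG, a subunit of the enzyme that makes the mannose 6-phosphate tag of hydrolases, gave 0.56 ± 0.098 (adjusted p = 2.66e-05) with STS_apoEV and -0.36 ± 0.10 (adjusted p = 0.0119) with DDP_apoEV. SORT1 and GNPTAB, named after their values were seen, fell with STS_apoEV. Of 14 other pump subunits, 4 rose and 1, ATP6V0A1, fell with STS_apoEV, none rose and 2 fell with DDP_apoEV, and 8 were higher and none lower between the vesicles. In edgeR's test 0 of these 14 were higher with DDP_apoEV and 0 were lower between the vesicles at an unadjusted p under 0.05. ATP6V1G1 rose with STS_apoEV by 0.53 ± 0.078 (adjusted p = 1.97e-06) and ATP6AP2 by 0.26 ± 0.073 (adjusted p = 0.00621), while ATP6V1E1 fell with DDP_apoEV by 0.26.

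Of 38 other autophagy genes, 12 rose and 3 fell with STS_apoEV against control, 2 rose and 3 fell with DDP_apoEV against control, and 22 were higher and 4 lower between the vesicles. The shares with DDP_apoEV, 5.26% higher and 7.89% lower, were near the 7.16% and 8.32% of all genes tested. BNIP3L, a receptor for the autophagy of mitochondria, rose with STS_apoEV by 0.82 ± 0.080 (adjusted p = 8.08e-10), OPTN, a cargo receptor, by 0.82 ± 0.080 (adjusted p = 6.43e-10) and ATG2A, a lipid transfer protein, by 1.15 ± 0.12 (adjusted p = 1.69e-09). With DDP_apoEV these 3 gave -0.18, 0.027 and 0.045 without a call. Of 25 genes of nutrient sensing at the lysosome, 8 rose and 2 fell with STS_apoEV, none rose and 3 fell with DDP_apoEV, and 14 were higher and 1 lower between the vesicles. In edgeR's test 0 of these 25 were higher with DDP_apoEV at an unadjusted p under 0.05. FNIP1, the partner of folliculin, rose with STS_apoEV by 0.47 ± 0.090 (adjusted p = 8.9e-05). FLCN, folliculin, fell with DDP_apoEV (-0.63 ± 0.11 (adjusted p = 0.000231)), and MITF, a relative of TFEB, fell with both vesicles (-0.66 ± 0.10 (adjusted p = 4.04e-06) with STS_apoEV and -0.41 ± 0.099 (adjusted p = 0.00357) with DDP_apoEV).

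**Figure D5:**
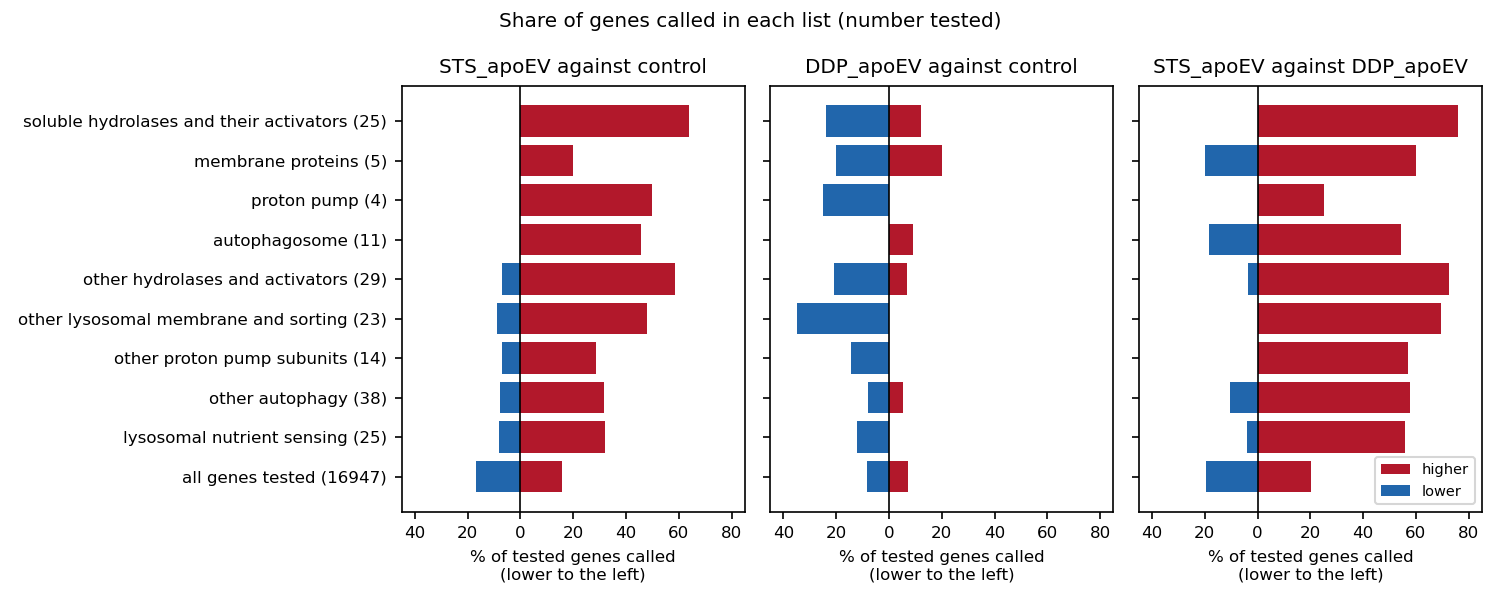
Share of the tested genes of each list called higher (red, to the right) or lower (blue, to the left) in each comparison, with the number tested in brackets and all 16947 genes in the last row. With STS_apoEV the red bars of the hydrolases reach 64.0% for the members and 58.6% for the other hydrolases, and with DDP_apoEV the longest blue bar is 34.8% for the other membrane and sorting genes.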

How the data were processed

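Messenger RNA was sequenced from TRIzol-extracted total RNA with the NEBNext Ultra kit, per the labels. The authors deposited raw counts per gene and FPKM, 9 libraries in each table, not pooled. The submitters' processing notes name HISAT2 2.0.5, StringTie 1.3.3b, featureCounts 1.5.0-p3 and hg38, without their order or the strand setting. FPKM in the deposited table were used for levels between genes and as an alternative.

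Counts were tested with edgeR 4.0.16 (R 4.3.3): trimmed-mean (TMM) factors, filterByExpr, 1 robust quasi-likelihood fit over all 9 libraries without covariates, and Benjamini-Hochberg adjustment over 16947 genes with a threshold of 0.05. Rows without an Ensembl ID (705 of 62257, at most 0.357% of counts) stayed in. SE is the log2 fold change over the root of F. The fit was also run on counts simulated from its own dispersion estimates, which cannot show how well the model describes these data. Alternatives were DESeq2 1.42.0, limma 3.58.1 (voom, log2(FPKM + 1) or log2(FPKM + 0.1) over genes with a mean of at least 1 FPKM, and log2(FPKM + 1) unfiltered), other factors and filters, fits of 2 groups, a replicate block and leaving out each library. Libraries of a group differed beyond counting error, and each counted as 1 replicate. The SE and p-values of the edgeR fit include this spread between libraries, which may be technical.

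The members and the other lists were chosen with earlier results of these data known. Full statistics are given for the 4 members of each class with the smallest p of the 3-group test and for 10 listed members whatever their result (LAMP1, LAMP2, TFEB, TFE3, SQSTM1, MAP1LC3B, GABARAPL1, CTSD, CTSB and ULK1), of which CTSD and SQSTM1 were not already among them, and for up to 3 called genes of smallest p in each other list. One listed symbol had no match, so 30 of 31 other hydrolases were matched, and CTSO, LAMP3, ATP6V0D2, ATG16L1, PLEKHM1, TFEC and SESN2 had too few counts to test.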

Additional observations from a re-analysis of the deposited data

How the results depend on the processing

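All called members kept their direction under all 20 alternatives, and the calls held under every one for 16 of 25 members with STS_apoEV against control, 1 of 13 with DDP_apoEV against control and 28 of 33 between the vesicles. Unfiltered limma on log2(FPKM + 1) tested 37966 genes and called 16 members higher with STS_apoEV, and 1 higher and 1 lower with DDP_apoEV. Leaving out 1 library gave 20 to 25 higher with STS_apoEV, 3 to 5 higher (3 without control replicate 2) and 6 to 11 lower with DDP_apoEV, and 27 to 29 higher and 3 lower between the vesicles. Some uncalled log2 fold changes changed sign under an alternative, and values are given here only for members with full statistics. CTSZ, GLA, GLB1, GUSB, IDS, WIPI2, UVRAG, BECN1 and ATG9A also had uncalled changes of sign. Leaving out 1 library, NPC1 with STS_apoEV against control lay between -0.14 and 0.0080, MCOLN1 with STS_apoEV against control between -0.21 and 0.0065, ATP6V1H with DDP_apoEV against control between -0.021 and 0.17, TFEB between the vesicles between -0.053 and 0.56, MAP1LC3B with DDP_apoEV against control between -0.16 and 0.016, and ULK1 with DDP_apoEV against control between -0.062 and 0.063. ULK1 was also -0.0020 with upper-quartile factors and -0.0008 with a filter of 1 CPM. The cause was not tested. Deviations from the group means correlated between -0.0847 and 0.0547 for same-numbered libraries of different groups, and between -0.0474 and 0.0564 for libraries of different number. These values cannot tell whether same-numbered libraries were handled together. With a replicate block 25 members rose with STS_apoEV, and 5 rose and 8 fell with DDP_apoEV. Between the vesicles 28 were higher and 3 lower, and 34 differed among the groups. The calls between the vesicles that ended with the block were those of TFE3 (adjusted p = 0.0577) and SQSTM1 (adjusted p = 0.088). TFEB had few counts, at 1.59 to 4.21 CPM, and spread from 25 to 69 counts within the DDP_apoEV group. What made its SE wide was not tested.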
